A study of Homo sapiens with 12 samples.

Results

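The 10 genes described here encode proteins of antioxidant defence, iron handling and protection from ferroptosis: HMOX1, NQO1, GCLM, GCLC, TXNRD1, SRXN1, SLC7A11, GPX4, FTH1 and FTL. They were found by symbol among the 56609 gene symbols of the deposited count table, and each had 1 row. RNA was sequenced from A375, an established human malignant melanoma line. The cells were wild type or had MAPKAPK2, which encodes MK2, a kinase activated by stress, knocked out with CRISPR/Cas9. The 4 groups, with 3 replicates each, were wild type with DMSO, wild type with JQ1, knockout with DMSO and knockout with JQ1, all for 48 h and with JQ1 at 500 nM. The series asked how losing MK2 bears on resistance to BET bromodomain inhibitors such as JQ1, which displaces BET proteins from acetylated chromatin. Whether the knockout cells were 1 clone or a pool is not given in the sources used here. The labels name no separate cultures, so p-values measure the spread between these samples, which may be technical.

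NRF2, the product of NFE2L2, is a transcription factor that KEAP1 holds at low levels by handing it to the proteasome. Under oxidative or electrophilic stress NRF2 escapes KEAP1, pairs with small MAF proteins and binds antioxidant response elements, where BACH1 competes with it. Its known targets make glutathione, reduce thioredoxin and quinones, break down heme and store iron. Ferroptosis is a form of cell death driven by iron-dependent peroxidation of membrane lipids. It is held back by cystine uptake, glutathione and the peroxidase GPX4, and melanoma cells are known to differ widely in their sensitivity to it with their differentiation state.

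Stretches that match the letters of the antioxidant response element and of the iron-responsive element are shown first. The results below concern genes of this pathway and ferritin. Elements outside the searched stretches were not looked for. Promoter windows were found for 7 of the 10 genes in RefSeq (GRCh38.p14), and HMOX1, SLC7A11 and FTH1 had none. Each window, from 250 bases before RefSeq's start of a gene to 50 after it, was searched on both strands for TGACNNNGC, the core letters of the antioxidant response element. GCLM and TXNRD1 held a match, 2 of 7, against 13.3% of all 35116 windows of this length. Those 35116 windows count every listed start of a gene. RefSeq's starts differ from the gene bounds of GENCODE 29 used elsewhere. The upstream 250 bases lie wholly inside the GENCODE gene for NQO1 and GCLC, and 170 of them do for SRXN1, 68 for GPX4, 26 for GCLM, 8 for FTL and 0 for TXNRD1. The 250 bases upstream of RefSeq's starts of GCLM and TXNRD1 are printed with the matches in capitals. The GCLM match lies at bases -34 to -26 from the start, on the opposite strand, and in TXNRD1 the matches lie at -99 to -91 and at -8 to 1, the latter on the opposite strand and running 1 base past the stretch shown. RefSeq lists 2 starts for TXNRD1 and 3 for GPX4. Only the first listed start of each gene was searched, and the TXNRD1 stretch shown is from its first.
GCLM promoter, chr1:93909431-93909680, minus strand: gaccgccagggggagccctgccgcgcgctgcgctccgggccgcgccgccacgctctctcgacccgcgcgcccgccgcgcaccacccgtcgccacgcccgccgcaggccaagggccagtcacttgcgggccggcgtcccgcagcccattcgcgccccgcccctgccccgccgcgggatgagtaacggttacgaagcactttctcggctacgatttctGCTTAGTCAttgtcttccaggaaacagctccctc
TXNRD1 promoter, chr12:104215529-104215778, plus strand: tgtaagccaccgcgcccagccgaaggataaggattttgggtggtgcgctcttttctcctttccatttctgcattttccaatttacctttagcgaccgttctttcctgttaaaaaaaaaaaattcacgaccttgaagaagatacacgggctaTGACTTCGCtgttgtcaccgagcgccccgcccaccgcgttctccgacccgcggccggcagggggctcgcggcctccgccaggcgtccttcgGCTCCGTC
FTL iron-responsive element, bases 32 to 61 of the transcript: tgtctcttgCTTCAACAGTGTttggacgga

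The same windows were searched for 3 other motifs. None of the 7 genes matched TGANTCA (AP-1, in 7.71% of all windows), TGATGNAA (the ATF4 site, in 3.62%) or CACGTG (the E-box, in 7.26%). The FTL stretch comes from the GENCODE 29 transcript, with the core letters of the iron-responsive element, its loop and the cytosine bulge, in capitals. The transcripts of HMOX1, SLC7A11 and FTH1 were not searched for these letters. Such letters occur in the first 100 bases of 674 of 19902 coding genes (3.39%). The iron-responsive element is known to block translation of ferritin mRNA when iron is scarce, a control that RNA counts do not measure. A match to letters is a description of the window and not evidence of binding.

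The libraries held from 25316565 to 34594025 estimated counts, and 21698 genes passed the filter on low counts, all 10 among them. Levels are given as counts per 1000000 (CPM) of the scaled library. MAPKAPK2 itself was at 11.1 to 15.7 CPM in the 6 knockout libraries and at 87.9 to 120 CPM in the 6 wild-type libraries, so the genotype labels hold in every library, although RNA of the gene was still counted. The log2 fold change of MAPKAPK2 between genotypes was -2.85 in DMSO (adjusted p = 3.6e-11) and -3.02 in JQ1 (adjusted p = 1.54e-11), and with JQ1 it was 0.39 in wild type (adjusted p = 0.00109) and 0.22 in knockout (adjusted p = 0.0724). The knockout value passed in 4 of 23 alternatives. The smallest adjusted p came without replicate 2 of knockout with JQ1 (0.31, adjusted p = 0.0143). Of the melanocytic markers, SOX10 (389 to 687 CPM), MITF (25.6 to 44.1) and S100B (27.8 to 49.1) were present, while the pigment genes PMEL, MLANA, TYR, DCT and TYRP1 stayed at or under 1.45 CPM. Summed markers of keratinocytes (4.0 to 7.12 CPM) and leukocytes (0.852 to 1.52) were low throughout. The summed fibroblast markers were at 12.8 to 17.4 CPM in DMSO and 3.29 to 5.75 CPM in JQ1, and the summed endothelial markers at 9.91 to 13 CPM in wild type and 4.04 to 8.0 CPM in knockout. Single genes made up much of these sums. PDGFRB ran from 1.71 to 10.9 CPM and LUM from 0.408 to 4.77, while DCN and COL1A1 reached 1.04 and 1.24. KDR ran from 2.75 to 11.9 CPM, while PECAM1, VWF and CDH5 reached 1.29, 1.28 and 0.248. The share of counts in 4 abundant noncoding RNAs was 9.42% to 9.76% in wild type with DMSO, 10.6% to 11.7% in wild type with JQ1, 10.5% to 11.6% in knockout with DMSO and 11% to 14.6% in knockout with JQ1. The part of these markers and of this share in the results was not tested. Replicate 3 of knockout with JQ1 stood apart from its fellow replicates (chi-square per degree of freedom of 23.8 and 25.1, against 3.21 to 7.05 for all other replicate pairs), and had the highest of those noncoding shares.

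In wild-type cells JQ1 raised 8 of the 10 genes and lowered 1, the cystine transporter gene SLC7A11, in the quasi-likelihood test of edgeR (Benjamini-Hochberg adjusted p under 0.05 over all tested genes). Of all tested genes 33.1% were called, 16.9% higher and 16.2% lower. In knockout cells the count was again 8 higher and 1 lower, where 34.4% of all genes were called, 16.7% higher and 17.8% lower. The median log2 fold change over the 10 genes was 0.49 in wild type and 0.46 in knockout, beside -0.03 and 0.00 over all tested genes. HMOX1 was the gene that did not pass in either genotype. In bulk RNA a change in the share of cells that express a gene and a change in RNA per cell cannot be told apart. The JQ1 and knockout contrasts share libraries, so their values are given side by side.

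**Figure D1:**
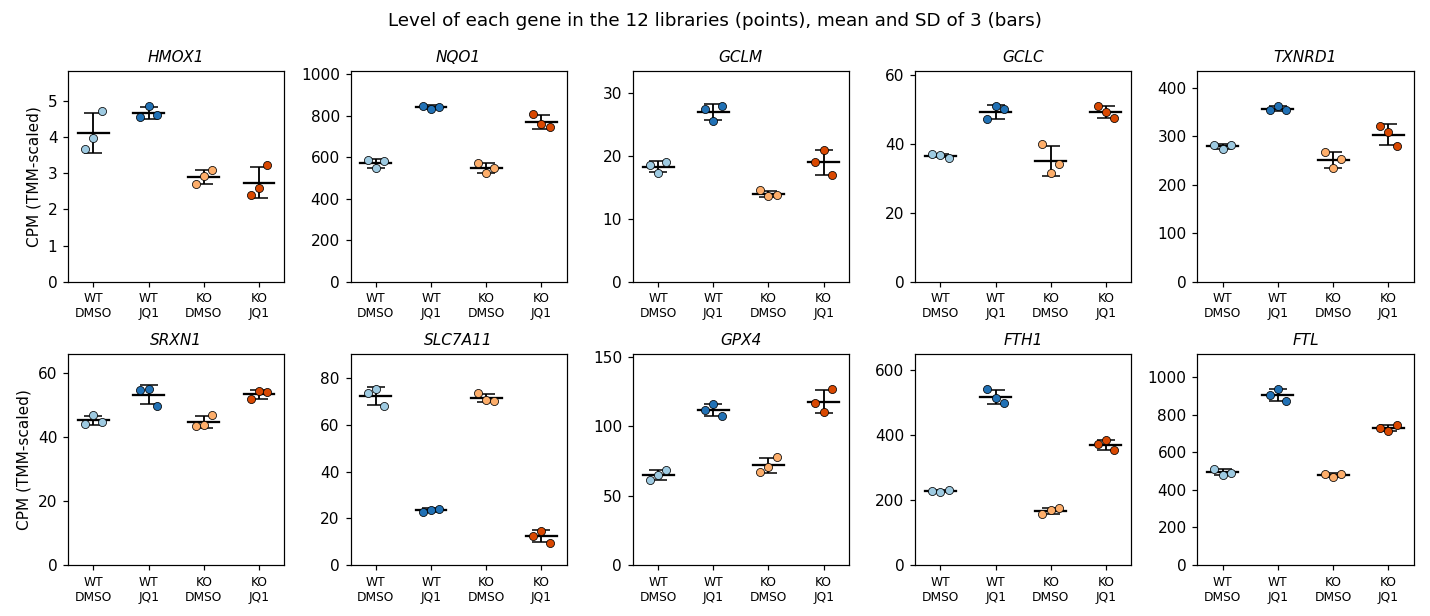
CPM of each gene in the 12 libraries, on axes that start at 0, with points for libraries and bars for the mean and SD of 3 replicates in each group. SLC7A11 falls from between 68.2 and 75.4 CPM in DMSO to at most 24.2 CPM in JQ1, while FTH1 is at or above 353 CPM in all 6 JQ1 libraries and at or below 230 CPM in all 6 DMSO libraries.

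SLC7A11 encodes xCT, the subunit of the cystine/glutamate antiporter that brings in cystine for glutathione. Its level was 73.6, 75.4 and 68.2 CPM in the wild-type DMSO libraries and 22.7, 23.8 and 24.2 CPM in the wild-type JQ1 libraries. In knockout cells it was 73.6, 70.8 and 70.4 CPM with DMSO and 12.5, 14.7 and 9.62 CPM with JQ1. The DMSO groups overlapped, every JQ1 library was lower than every DMSO library, and every knockout JQ1 library was lower than every wild-type one.

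JQ1 lowered SLC7A11 by 1.62 on the log2 scale in wild type (SE 0.10, adjusted p = 3.39e-08 by edgeR, n = 3 per group). In knockout the log2 fold change was -2.55 (SE 0.11, adjusted p = 6.4e-10). Knockout and wild type differed by -0.02 in DMSO (SE 0.10, adjusted p = 0.956) and by -0.95 in JQ1 (SE 0.11, adjusted p = 5.91e-05). The difference between the 2 JQ1 responses, tested as an interaction, was -0.93 (SE 0.15, adjusted p = 0.0208), and SLC7A11 was the 1 gene of the 10 called there, where 0.134% of all tested genes were called (29 at the adjusted threshold).

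The call on the difference of responses rested on the full set of libraries. The adjusted p was 0.0684, 0.070 and 0.103 without replicate 1, 2 or 3 of wild type with DMSO, and 0.0579, 0.092 and 0.0615 without replicate 1, 2 or 3 of wild type with JQ1. It was 0.0716, 0.0635 and 0.0846 without replicate 1, 2 or 3 of knockout with DMSO. The call held without each knockout JQ1 library, and without replicate 3, which stood apart, the value was -0.78 (adjusted p = 0.00319). The direction was negative in every one of these fits, with values from -1.08 to -0.78.

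SLC3A2, the heavy chain that carries xCT to the membrane, changed in the opposite direction. Its mean was 96.1 ± 3.60 CPM in wild type with DMSO and 123 ± 5.65 with JQ1, and 82.1 ± 1.80 and 107 ± 8.50 in knockout (SD, n = 3 each). JQ1 raised it by 0.35 in wild type (adjusted p = 0.000588) and by 0.39 in knockout (adjusted p = 0.000252) on the log2 scale. Between genotypes in JQ1 it differed by -0.19 (adjusted p = 0.0805), and it passed without replicate 3 of knockout with JQ1 (-0.26, adjusted p = 0.005), with DESeq2 (adjusted p = 0.0419), with library totals (0.0249) and with GC and length offsets (0.0182). The ratio of SLC7A11 to SLC3A2 counts was 0.753 ± 0.0302 in wild type with DMSO, 0.193 ± 0.0120 with JQ1, 0.872 ± 0.0311 in knockout with DMSO and 0.116 ± 0.0319 with JQ1. No groups overlapped in the 4 comparisons of this ratio, each with p = 0.1 by a two-sided exact permutation test, the smallest that 3 against 3 allows.

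SLC7A11 also had the widest range of group means among the 10 genes, 2.57 on the log2 CPM scale. Outside the lists used here, 11134 genes averaged 5 CPM or more, and among them the 3 whose log2 CPM followed it most closely over the 12 libraries were C1R (Pearson r = 0.994), IFIT3 (0.993) and SAMD9L (0.993). C1R, which encodes a complement protease, had means of 14.6 and 12.1 CPM with DMSO and of 2.80 and 1.22 CPM with JQ1, in wild type and knockout in turn. These r values describe likeness across libraries that fall into groups by drug.

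GCLC and GCLM encode the catalytic and the modifier subunit of glutamate-cysteine ligase, the first step of glutathione synthesis. GCLM was at 18.5, 17.4 and 19.1 CPM in wild type with DMSO and at 27.5, 25.7 and 28 CPM with JQ1. In knockout it was at 14.6, 13.7 and 13.9 CPM with DMSO and at 19.1, 21 and 17 CPM with JQ1. JQ1 libraries were above DMSO libraries in each genotype without overlap, and knockout libraries were below wild-type libraries in each treatment without overlap.

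JQ1 raised GCLM by 0.56 in wild type (SE 0.08, adjusted p = 0.000112) and by 0.43 in knockout (SE 0.09, adjusted p = 0.00117). Knockout cells had less GCLM RNA than wild type, with log2 fold changes of -0.38 in DMSO (SE 0.09, adjusted p = 0.0111) and -0.51 in JQ1 (SE 0.08, adjusted p = 0.00115). The DMSO call was lost without replicate 2 (adjusted p = 0.0701) or 3 (0.0613) of knockout with DMSO, and without replicate 1 (0.0613) or 3 (0.0731) of wild type with DMSO.

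GCLC rose with JQ1 too, from 36.0 to 37.1 CPM up to 47.1 to 51.0 CPM in wild type and from 31.4 to 39.9 CPM up to 47.4 to 50.9 CPM in knockout. The log2 fold changes were 0.43 (adjusted p = 0.000627) and 0.48 (adjusted p = 0.000219). Unlike GCLM, GCLC was not called between genotypes, with -0.06 in DMSO (adjusted p = 0.763) and 0.00 in JQ1 (adjusted p = 0.984). The ratio of GCLC to GCLM counts was 2.00 ± 0.115 and 1.83 ± 0.142 in wild type with DMSO and JQ1, and 2.49 ± 0.222 and 2.60 ± 0.226 in knockout (SD, n = 3 each). Knockout libraries had the higher ratio in both treatments without overlap (exact permutation p = 0.1 each), while JQ1 and DMSO libraries overlapped in both genotypes (exact permutation p = 0.2 and 0.7).

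GPX4, the selenoenzyme that reduces lipid hydroperoxides in membranes with glutathione, rose with JQ1. It was at 60.9, 64.8 and 68.4 CPM in wild type with DMSO and at 112, 116 and 107 CPM with JQ1. In knockout it was at 67.3, 70.4 and 77.4 CPM with DMSO and at 117, 110 and 127 CPM with JQ1. The 6 JQ1 libraries were all above the 6 DMSO libraries, and the genotypes overlapped in both treatments. The log2 fold changes with JQ1 were 0.78 in wild type (SE 0.07, adjusted p = 1.19e-06) and 0.72 in knockout (SE 0.07, adjusted p = 2.34e-06).

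The difference between knockout and wild type in GPX4 was 0.15 in DMSO (unadjusted p = 0.0576, adjusted p = 0.276 by edgeR) and 0.08 in JQ1 (adjusted p = 0.6). By a normal approximation from the SE, its 95% interval was 0.01 to 0.29 in DMSO and -0.06 to 0.22 in JQ1. That approximation is narrower than the edgeR test, which did not pass in DMSO even before adjustment. The SLC7A11 and GPX4 levels thus moved in opposite directions under JQ1 in both genotypes. Of 9 genes for selenoprotein synthesis, 2 were higher, 1 lower and 6 not called with JQ1 in each genotype, near the 33.1% and 34.4% called over all tested genes. EEFSEC, the elongation factor for selenocysteine, rose by 0.91 in wild type and by 0.81 in knockout (adjusted p = 1.61e-06 and 3.82e-06), and SEPHS2, which makes the selenium donor, by 0.24 and 0.29. SEPHS1 fell by 0.24 and by 0.25, and its call in wild type was lost without replicate 1 with DMSO (adjusted p = 0.0505).

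**Figure D2:**
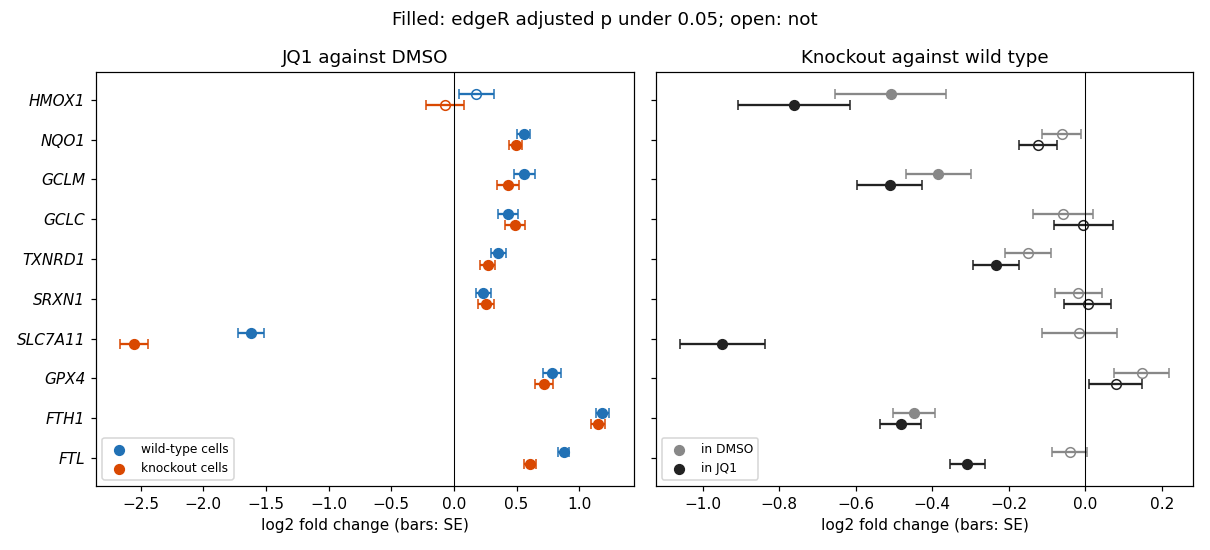
Log2 fold changes of the 10 genes with SE bars, JQ1 against DMSO at left and knockout against wild type at right, with filled points for an adjusted p under 0.05. SLC7A11 lies at -1.62 and -2.55 under JQ1 while 8 genes lie above 0, and FTH1 lies at -0.45 and -0.48 between genotypes.

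FTH1 and FTL encode the heavy and light chains of ferritin, the shell that stores iron, of which the heavy chain oxidises it. FTH1 was at 226, 225 and 230 CPM in wild type with DMSO and at 540, 513 and 496 CPM with JQ1. In knockout it was at 157, 168 and 174 CPM with DMSO and at 372, 384 and 353 CPM with JQ1. Each of the 4 groups was separate from the other 3.

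JQ1 raised FTH1 2.27-fold in wild type (log2 fold change 1.19, SE 0.05, adjusted p = 1.59e-09) and 2.22-fold in knockout (1.15, SE 0.06, adjusted p = 1.5e-09). FTH1 was lower in knockout cells in both treatments, with log2 fold changes of -0.45 in DMSO (SE 0.05, adjusted p = 9.61e-05) and -0.48 in JQ1 (SE 0.05, adjusted p = 3.97e-05). The difference of the JQ1 responses was -0.03 (SE 0.08, adjusted p = 0.947).

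FTL was at 509, 479 and 490 CPM in wild type with DMSO and at 903, 935 and 873 CPM with JQ1. In knockout it was at 484, 467 and 485 CPM with DMSO and at 730, 713 and 746 CPM with JQ1. The genotypes overlapped in DMSO, and in JQ1 every knockout library was below every wild-type library.

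JQ1 raised FTL by 0.88 in wild type (SE 0.05, adjusted p = 5.09e-09) and by 0.61 in knockout (SE 0.05, adjusted p = 1.59e-07). Between genotypes FTL differed by -0.04 in DMSO (adjusted p = 0.703) and by -0.31 in JQ1 (SE 0.05, adjusted p = 0.000523). The difference of the JQ1 responses, -0.27 (SE 0.07), had an adjusted p of 0.203 by edgeR and of 0.00309 by DESeq2.

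The log2 fold change of the heavy chain was larger in size than that of the light chain in each of the 4 comparisons. The ratio of FTH1 to FTL counts was 0.461 ± 0.0149 in wild type with DMSO and 0.572 ± 0.0247 with JQ1, and 0.348 ± 0.0202 and 0.507 ± 0.0330 in knockout (SD, n = 3 each). None of the 4 comparisons overlapped (exact permutation p = 0.1 each, two-sided). Processed pseudogenes could share reads with both genes. Those of FTH1 (25 symbols, 21 with counts) held 0.173% to 0.797% of the summed counts, and those of FTL (14 symbols, 7 with counts) held 0.0278% to 0.134%.

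**Figure D3:**
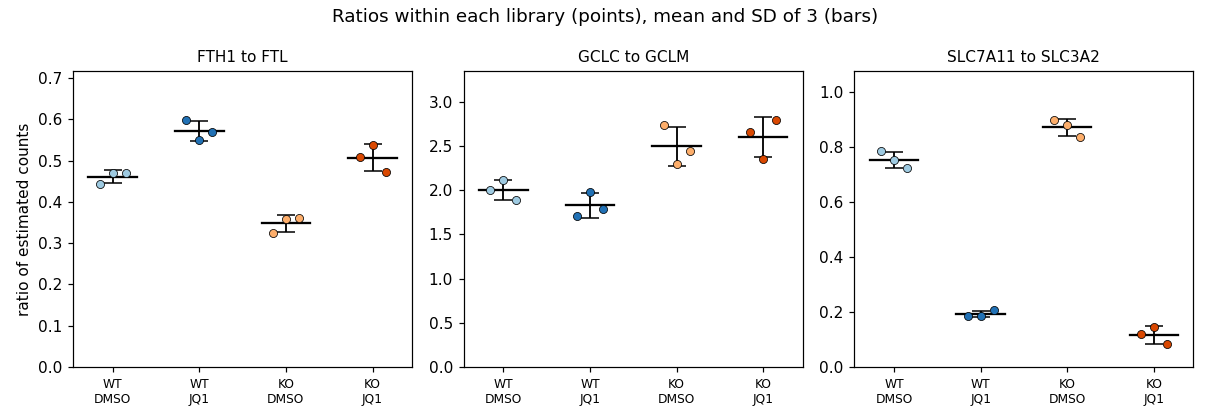
Ratio of counts within each library for FTH1 to FTL, GCLC to GCLM and SLC7A11 to SLC3A2, on axes that start at 0, with points for libraries and bars for the mean and SD of 3 replicates. The FTH1 to FTL ratio is lowest in knockout with DMSO (0.348) and highest in wild type with JQ1 (0.572).

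HMOX1, the inducible heme oxygenase that frees iron from heme, had low levels. It was at 3.67, 3.97 and 4.73 CPM in wild type with DMSO and at 4.55, 4.86 and 4.61 CPM with JQ1. In knockout it was at 2.69, 2.92 and 3.09 CPM with DMSO and at 2.40, 2.60 and 3.23 CPM with JQ1. All knockout libraries were below all wild-type libraries, while JQ1 and DMSO libraries overlapped in both genotypes, and these levels came from 63 to 172 counts per library.

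The log2 fold change of HMOX1 with JQ1 was 0.18 in wild type (SE 0.14, adjusted p = 0.359) and -0.07 in knockout (SE 0.15, adjusted p = 0.757). HMOX1 was lower in knockout, with log2 fold changes of -0.76 in JQ1 (SE 0.15, adjusted p = 0.00375) and -0.51 in DMSO (SE 0.14, adjusted p = 0.0438). The DMSO call was lost without most single libraries. The adjusted p was 0.0507, 0.098 and 0.207 without replicate 1, 2 or 3 of wild type with DMSO and 0.146, 0.113 and 0.0802 without replicate 1, 2 or 3 of knockout with DMSO. It was 0.0619, 0.0604 and 0.0561 without replicate 1, 2 or 3 of wild type with JQ1 and 0.0513 without replicate 2 of knockout with JQ1. DESeq2 gave 0.0672.

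NQO1, a quinone reductase, TXNRD1, the cytosolic thioredoxin reductase, and SRXN1, which restores overoxidised peroxiredoxins, all rose with JQ1. NQO1 was at 585, 547 and 584 CPM in wild type with DMSO and at 847, 830 and 844 CPM with JQ1, which is a rise of 0.56 on the log2 scale (SE 0.05, adjusted p = 1.23e-06). In knockout it was at 571, 523 and 550 CPM and at 809, 762 and 744 CPM, a rise of 0.49 (SE 0.05, adjusted p = 3.16e-06). The genotypes did not pass the test in either treatment (-0.06 in DMSO, adjusted p = 0.573, and -0.12 in JQ1, adjusted p = 0.171).

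TXNRD1 was at 282, 274 and 282 CPM in wild type with DMSO and at 355, 363 and 354 CPM with JQ1, and in knockout at 268, 235 and 253 CPM with DMSO and at 322, 309 and 280 CPM with JQ1. JQ1 raised it by 0.35 in wild type (adjusted p = 0.000366) and by 0.27 in knockout (adjusted p = 0.00285). In JQ1 it was lower in knockout (log2 fold change -0.23, SE 0.06, adjusted p = 0.025). That call was lost without replicate 3 of knockout with DMSO (0.0529), without replicate 1, 2 or 3 of wild type with DMSO (0.056, 0.0561 and 0.0568) and without replicate 1, 2 or 3 of wild type with JQ1 (0.0688, 0.0972 and 0.0596). It was also lost when the 6 JQ1 libraries were fitted alone (adjusted p = 0.107).

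SRXN1 ran from 44.1 to 46.8 CPM in wild type with DMSO and from 49.8 to 55.0 CPM with JQ1, and from 43.4 to 46.9 CPM and 51.8 to 54.3 CPM in knockout. It rose by 0.23 in wild type (adjusted p = 0.00878) and by 0.26 in knockout (adjusted p = 0.00457), the smallest rise that was called among the 10 genes. When libraries were scaled by their totals alone, which moves the median of all genes by -0.13 in wild type and by -0.12 in knockout, those values were 0.10 (adjusted p = 0.213) and 0.14 (adjusted p = 0.0902). The TXNRD1 value in knockout was then 0.16 (adjusted p = 0.0717).

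Between genotypes in DMSO, 3 of the 10 genes were called, all lower in knockout (HMOX1, GCLM and FTH1), where 7.92% of all tested genes were called, 3.47% higher and 4.44% lower. In JQ1, 6 were called, all lower in knockout (HMOX1, GCLM, TXNRD1, SLC7A11, FTH1 and FTL), where 8.57% were called, 3.01% higher and 5.56% lower. The balance over all genes turned when GC content and length were offsets, to 1870 higher and 1497 lower in JQ1 (653 and 1207 without them) and 1755 higher and 1286 lower in DMSO (754 and 964). The median log2 fold change over the 10 genes was -0.06 in DMSO and -0.27 in JQ1, beside 0.00 over all tested genes in each. Apart from SLC7A11, none of the 10 genes passed the interaction test by edgeR, and the largest of the other differences of responses in size were FTL at -0.27 and HMOX1 at -0.25 (adjusted p = 0.789).

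The 10 genes also differ in the length of their transcripts. The 3 shortest, FTL (878 bases), GPX4 (1002 bases) and FTH1 (1229 bases), had the 3 largest rises with JQ1, and the longest, SLC7A11 (9645 bases), was the one that fell. With GC content and length added to the fit as offsets, an alternative chosen after seeing the data, the wild-type values were 1.18 for FTH1, 0.79 for FTL, 0.64 for GPX4 and -1.41 for SLC7A11. Over all genes that averaged 1 CPM or more, the median log2 fold change in wild type was 0.04 for transcripts up to 1500 bases and -0.05 for those over 5000 bases.

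Levels between genes were compared per kilobase of the longest coding transcript in GENCODE 29. In wild type with DMSO, FTL had 561 CPM per kilobase, NQO1 196, FTH1 185, TXNRD1 65.3, GPX4 64.6, SRXN1 16.8, GCLC 9.6, SLC7A11 7.51, GCLM 3.77 and HMOX1 2.26. TXNRD1 and GPX4 lay side by side in that order. With JQ1 in wild type FTH1 (420 CPM per kilobase) was above NQO1 (289), and SLC7A11 (2.44) was below GCLM (5.57).

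In GENCODE 29 coordinates (GRCh38) the genes lie apart, except that GPX4 (chr19:1103926-1106791, plus strand) and FTL (chr19:48965301-48966878, plus strand) are on opposite arms of the same chromosome. FTH1 is at chr11:61959718-61967660 and SLC7A11 at chr4:138164097-138242349, both on the minus strand. HMOX1 is at chr22:35380361-35394214 on the plus strand. All values refer to counts over the whole gene, and no exon or isoform was separated.

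NFE2L2, the gene of NRF2 itself, was not called in any comparison. Its mean was 93.2 ± 2.05 CPM in wild type with DMSO, 97.2 ± 3.81 with JQ1, 93.1 ± 4.58 in knockout with DMSO and 95 ± 9.18 with JQ1 (SD, n = 3 each). The log2 fold changes with JQ1 were 0.06 (adjusted p = 0.549) and 0.03 (adjusted p = 0.808). NRF2 is known to be controlled largely at the level of protein, which was not measured.

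Its inhibitor KEAP1 fell with JQ1 by 0.25 in wild type (adjusted p = 0.0139) and by 0.32 in knockout (adjusted p = 0.0028), and BACH1 fell by 0.32 (adjusted p = 0.0129) and by 0.33 (adjusted p = 0.0105). Between genotypes KEAP1 differed by 0.14 in DMSO (adjusted p = 0.317) and by 0.07 in JQ1 (adjusted p = 0.676), and BACH1 by 0.10 (adjusted p = 0.608) and 0.09 (adjusted p = 0.646). BACH1 passed in JQ1 without replicate 3 of knockout with JQ1 (0.21, adjusted p = 0.0247), and with GC and length offsets it passed in DMSO (0.18, adjusted p = 0.0159) and in JQ1 (0.18, adjusted p = 0.0188). Without single libraries the KEAP1 call in wild type was lost (adjusted p = 0.0654 without replicate 1 with DMSO and 0.0712 without replicate 3 with JQ1), as were the BACH1 calls in wild type (0.0662 without replicate 1 with JQ1) and in knockout (0.0545 without replicate 1 with DMSO). Of 13 NRF2 regulators, 4 rose, 4 fell and 5 were not called with JQ1 in wild type, and 4 rose and 3 fell in knockout, with median log2 fold changes of 0.04 and 0.03, where all tested genes had 16.9% and 16.7% higher and 16.2% and 17.8% lower. SQSTM1, the autophagy adaptor p62 that can sequester KEAP1, rose from 345 to 563 CPM in wild type (0.71, SE 0.06, adjusted p = 2.42e-07) and from 263 to 387 CPM in knockout (0.56, SE 0.06, adjusted p = 2.3e-06). It was lower in knockout, with log2 fold changes of -0.39 in DMSO (adjusted p = 0.000371) and -0.54 in JQ1 (adjusted p = 1.54e-05). NFE2L3, a relative of NRF2, fell with JQ1 by 0.52 and by 0.66 (adjusted p = 4.96e-06 and 4.88e-07) and was lower in knockout with JQ1 (-0.30, adjusted p = 0.0034). RBX1, a subunit of the ligase that marks NRF2 for breakdown, rose by 0.39 and by 0.46.

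Among 22 tested other NRF2 target genes, 8 rose, 4 fell and 10 were not called with JQ1 in wild type, and 8 rose and 5 fell in knockout, with medians of 0.17 and 0.06, where 33.1% and 34.4% of all tested genes were called. PGD, an NADPH-making enzyme of the pentose phosphate pathway, went from 141 to 237 CPM in wild type (log2 fold change 0.75, SE 0.05, adjusted p = 9.11e-08). PRDX1, a peroxiredoxin, rose by 0.71 and 0.74 (adjusted p = 3.31e-07 and 1.73e-07).

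ABCC2, an exporter of glutathione conjugates, fell from 43.2 to 17.8 CPM in wild type (-1.28, SE 0.08, adjusted p = 4.58e-08) and from 38.4 to 9.73 CPM in knockout (-1.99, SE 0.09, adjusted p = 8.74e-10). Its difference of responses was -0.71 (SE 0.12, adjusted p = 0.0323), the only call for that contrast in the wider lists, and it was picked with its values known. That difference was not checked under the alternatives or with libraries left out. Between genotypes, 2 of the 22 were higher and 2 lower in DMSO, and 0 were higher and 4 lower in JQ1, where all tested genes had 3.47% higher and 4.44% lower in DMSO and 3.01% higher and 5.56% lower in JQ1. EPHX1, a microsomal epoxide hydrolase, was lower in knockout, with log2 fold changes of -0.50 in DMSO (adjusted p = 0.00181) and -0.56 in JQ1 (adjusted p = 0.000586). AKR1C2 has near-identical paralogs and a low level (1.55 CPM in knockout and 3.14 in wild type with JQ1). Its value in JQ1 (-1.02, adjusted p = 0.0085) is therefore uncertain.

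Of 11 tested genes of glutathione and cystine supply, 5 rose and 2 fell with JQ1 in each genotype, with medians of 0.19 and 0.17, where 33.1% and 34.4% of all tested genes were called. GSS, glutathione synthetase, rose by 0.65 in wild type (adjusted p = 7.56e-07) and by 0.48 in knockout (adjusted p = 1.01e-05). SLC1A4, a neutral amino acid transporter, rose by 0.99 and by 1.16 (adjusted p = 3.04e-08 and 5.13e-09). CBS, which starts the route from homocysteine to cysteine, fell from 21.6 to 9.41 CPM in wild type (-1.19, SE 0.12, adjusted p = 4.31e-06) and from 16.2 to 6.94 CPM in knockout (-1.23, SE 0.13, adjusted p = 4.11e-06). In DMSO, GSS was higher (0.28, adjusted p = 0.00526) and SLC1A4 lower (-0.35, adjusted p = 0.00227) in knockout. CHAC1, which degrades glutathione, was lower in knockout with JQ1 (1.43 against 3.67 CPM, -1.34, adjusted p = 0.00329).

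Of 20 tested genes of iron handling, 7 rose and 1 fell with JQ1 in wild type and 7 rose and 4 fell in knockout, with medians of 0.11 and 0.14, where 33.1% and 34.4% of all tested genes were called. TFRC, the transferrin receptor that takes up iron, was at 113 ± 4.53 CPM in wild type with DMSO, 162 ± 10.7 with JQ1, 86.3 ± 6.98 in knockout with DMSO and 145 ± 13 with JQ1 (SD, n = 3 each). It rose by 0.52 (adjusted p = 0.000125) and by 0.75 (adjusted p = 3.63e-06), in the same direction as ferritin, and was lower in knockout with DMSO (-0.39, adjusted p = 0.00509). In JQ1 the difference between genotypes was -0.16 (adjusted p = 0.277). HMOX2, the constitutive heme oxygenase, rose by 0.66 and by 0.64 (adjusted p = 1.58e-05 and 1.91e-05), and ACO1, whose protein binds iron-responsive elements when iron is scarce, rose by 0.54 in wild type (adjusted p = 3.37e-06). The mitochondrial iron importer SLC25A37 rose by 0.59 in wild type and the metal transporter SLC39A14 by 0.60 in knockout. Of the 20 iron genes, 0 were called for the difference of the JQ1 responses. STEAP3, a ferrireductase, was lower in knockout with JQ1 (3.21 against 5.97 CPM, -0.88, adjusted p = 0.00119). FLVCR1, a heme exporter, was lower in knockout, with log2 fold changes of -0.45 in DMSO and -0.59 in JQ1 (adjusted p = 0.000709 and 7.43e-05).

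Of 14 genes that restrain ferroptosis, SLC7A11 and GPX4 not among them, 3 rose and 1 fell with JQ1 in wild type and 2 rose and 2 fell in knockout, with medians of 0.06 and 0.07, where 33.1% and 34.4% of all tested genes were called. CISD2, an iron-sulfur protein, rose by 0.54 and by 0.78 (adjusted p = 2.96e-05 and 8.85e-07). HSPB1, a small heat shock protein and known substrate of the MK2 pathway, fell by 0.43 and by 0.89 (adjusted p = 0.00525 and 1.32e-05). SCD, which makes monounsaturated fatty acids, fell by 0.29 in knockout (adjusted p = 0.000161) and was lower in knockout with JQ1 (-0.22, adjusted p = 0.00688). The wider lists share genes, among them TFRC, NCOA4, CHAC1, SLC3A2 and PRDX1, so their counts are not separate from each other. Of 14 tested genes that promote ferroptosis, 7 rose and 1 fell in wild type and 4 rose and 1 fell in knockout, with medians of 0.17 and 0.14, beside the same shares over all genes.

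NOX4, an oxidase that makes hydrogen peroxide, was the one that fell, from 39.2 to 3.49 CPM in wild type (-3.49, SE 0.15, adjusted p = 5.65e-10) and from 38 to 3.98 CPM in knockout (-3.26, SE 0.14, adjusted p = 8.06e-10). LPCAT3, which places polyunsaturated fatty acids in phospholipids, rose by 0.55 and by 0.45 (adjusted p = 7.28e-05 and 0.000342). SAT1, a polyamine acetyltransferase, rose by 0.71 in wild type (adjusted p = 1.65e-05).

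Of 24 enzymes and partners of the thioredoxin, peroxide and superoxide systems, 12 rose and 3 fell with JQ1 in wild type and 10 rose and 3 fell in knockout, with medians of 0.22 and 0.10, where 33.1% and 34.4% of all tested genes were called. TXN itself, the substrate of TXNRD1, picked with its values known, was not called (0.00 and 0.03, adjusted p = 0.967 and 0.774). The ratio of TXNRD1 to TXN counts was 1.29 ± 0.0253 in wild type with DMSO and 1.66 ± 0.0759 with JQ1, and 1.19 ± 0.0866 and 1.40 ± 0.0387 in knockout (SD, n = 3 each). TXNIP, which binds and inhibits thioredoxin, rose by 0.77 in wild type (adjusted p = 4.74e-06). SESN3, a stress-induced sestrin, rose by 1.05 and by 0.81. GPX7, a peroxidase of the endoplasmic reticulum, fell by 1.64 in knockout, from a low level (4.47 to 1.45 CPM, adjusted p = 1.33e-05). In DMSO, 3 of the 24 were higher in knockout and 0 lower (3.47% and 4.44% of all tested genes): TXNIP and the sestrins SESN1 (0.52, adjusted p = 0.00175) and SESN3 (0.57, adjusted p = 0.00194). In JQ1 PRDX4, a peroxiredoxin of the endoplasmic reticulum, was higher in knockout (0.30, adjusted p = 0.00224).

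Several genotype calls of the wider lists in DMSO were small and were lost without replicate 2 of wild type with DMSO, among other libraries. These were SLC3A2 (-0.23, adjusted p = 0.0414, then 0.199), UGDH (0.23, adjusted p = 0.0371, then 0.168), MAFK (-0.32, adjusted p = 0.0475, then 0.184) and BTRC (0.26, adjusted p = 0.0267, then 0.123). PEBP1 (0.21, adjusted p = 0.0202, then 0.104), ME1 (-0.25, adjusted p = 0.0183, then 0.101), LRP8 (-0.30, adjusted p = 0.0104, then 0.0925), BLVRA (0.30, adjusted p = 0.0155, then 0.0868) and TXNIP (0.34, adjusted p = 0.016, then 0.0591) behaved likewise. TFRC lost its DMSO call without replicate 2 of knockout with DMSO (adjusted p = 0.0509). In JQ1 the same held for GPX3 (2.00 CPM in knockout, 3.23 in wild type, -0.69, adjusted p = 0.0239) without replicate 1 of wild type with JQ1 (0.12). BLVRA (0.31, adjusted p = 0.0102) also lost its call without that library (0.051). The CISD2 call in JQ1 (0.24, adjusted p = 0.0456) was lost in 9 of 12 fits that left out 1 library. Its adjusted p was highest without replicate 2 of wild type with JQ1 (0.164). The CISD2 call was also lost with the compared groups alone (0.143), with library totals (0.0991) and with no filter (0.115).

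**Figure D4:**
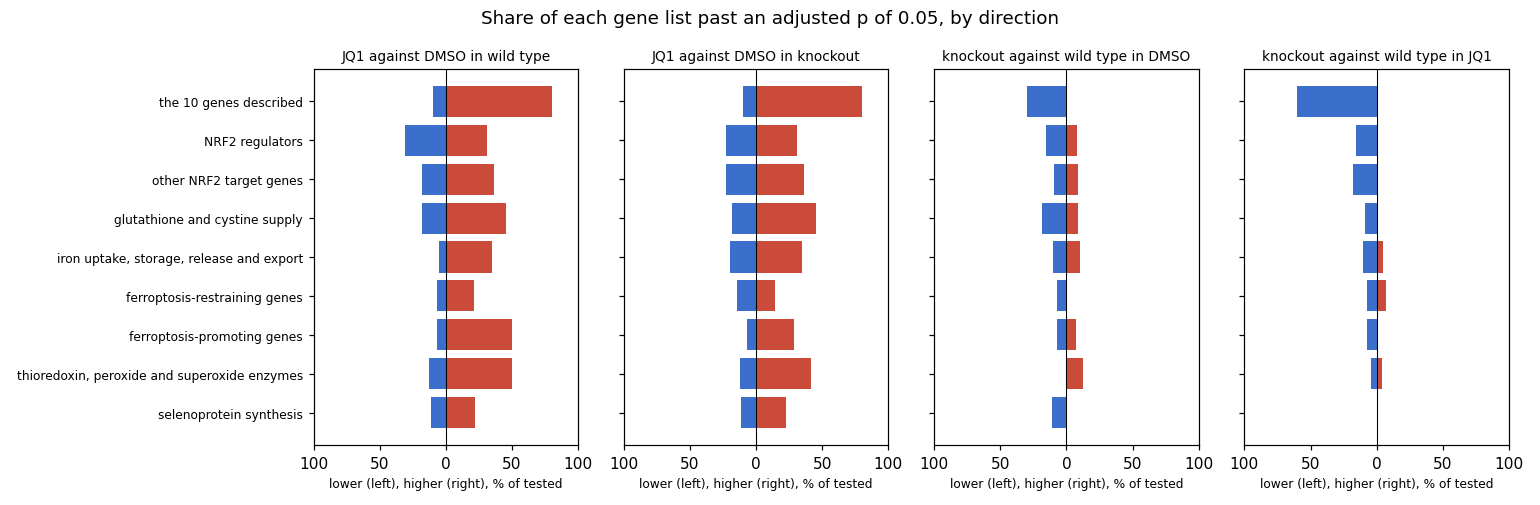
Percent of the tested genes of each list called higher (right of 0) or lower (left of 0) in the JQ1 and the genotype comparisons, by edgeR at an adjusted p under 0.05 and for the 10 genes described. With JQ1 8 of the 10 are higher in each genotype, and between genotypes in JQ1 6 of them are lower and 0 higher.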

How the data were processed

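RNA was sequenced from 12 A375 libraries in 4 groups of 3, taken from the genotype and treatment labels. Directional libraries were made after depletion of ribosomal RNA, per the labels' protocols. The submitters' processing notes name Trim Galore, cutadapt, FastQC, MultiQC, kallisto, DESeq2 and the build GRCh38.p10, without versions. The annotation and the use of strand in counting are not given in the sources used here, so genes that overlap or have near-identical copies are uncertain. The authors' deposited raw table holds estimated counts for 56609 gene symbols, here rounded to whole numbers as the unit required. They also deposited a table of normalized signal for 32828 genes, used only in alternatives.

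Genes with low counts were removed with filterByExpr, libraries were scaled by TMM, and all 12 libraries entered 1 model with a term per group in edgeR 4.0.16 (limma 3.58.1, R 4.3.3). The quasi-likelihood test used a prior count of 0.125 and Benjamini-Hochberg adjustment over 21698 genes, with a threshold of 0.05. An SE is the size of a log2 fold change over the root of its F statistic. CPM are counts per 1000000 of the scaled library. Ratios were compared by exact permutation tests over libraries.

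The 10 genes and the wider lists were chosen with earlier results of these data known. In every comparison the text names, per list, the called genes without overlap of replicates that had the smallest adjusted p (3 at most), and NFE2L2, KEAP1, BACH1, TFRC, SLC3A2 and MAPKAPK2 were always given. For any other gene the text says that it was picked with its values known. 1 gene that this rule names is not reported here. The genes most like SLC7A11 were ranked by Pearson r of log2 CPM (prior count 2). Alternatives were DESeq2 1.42.0, limma on the signal with a pseudocount of 1, other scalings, no filter on low counts, the compared groups alone, a replicate block, a threshold of 0.01, ferritin pseudogene counts added, and each library left out. Gene length and GC content came from GENCODE 29 by symbol, for 97.7% of tested genes.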

Additional observations from a re-analysis of the deposited data

Results flagged for a closer look

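The response of SLC7A11 to JQ1 differed between genotypes by the interaction test, with a difference of log2 fold changes, knockout minus wild type, of -0.93 (SE 0.15, adjusted p = 0.0208 by edgeR). All 3 knockout JQ1 libraries were below all 3 wild-type JQ1 libraries. The adjusted p ranged from 1.23e-08 to 0.103 over the alternatives.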

How the results depend on the processing

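Over 1140 values of the 10 genes under alternatives, 1063 kept direction and side of the threshold, and 0 called values turned in direction. The count of the 10 genes called was within 1.5 times of its main value throughout for both JQ1 comparisons (7 to 9) and for genotype in JQ1 (5 to 6). For genotype in DMSO it was 1 at a threshold of 0.01 and 1 to 3 with single libraries left out. For the difference of responses it was 2 with DESeq2, 0 at 0.01 and 0 to 1 with libraries left out.

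The replicate numbers did not pair the samples: the median correlation of deviations over 18 same-numbered pairs was -0.0036, none was over 0.1, and 2 of 12 libraries correlated best with their own number. With a replicate block the SLC7A11 difference of responses was -0.94 (adjusted p = 0.0382) and 21 genes were called there, against 29.

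Values near 0 that were never called changed sign. For NFE2L2 between genotypes in DMSO they were 0.0146 (other size factors), 0.0027 (no filter), 0.0203 (DESeq2), 0.0023 (compared groups alone), 0.0061 (limma), 0.0078 (the authors' factors) and 0.0018 (GC and length offsets), and under library totals NFE2L2 with JQ1 was -0.0679 and -0.0854. GCLC in JQ1 was 0.0019 (other size factors) and 0.0217 (GC and length). SRXN1 was -0.0259 and -0.0086 in JQ1 (library totals, no filter) and 0.0028 in DMSO (DESeq2), SLC7A11 in DMSO 0.0053 (DESeq2) and 0.135 (GC and length), and the GPX4 difference of responses 0.0180 (GC and length). With libraries left out, genotype values in DMSO ran from -0.152 to 0.0315 (GCLC), -0.0205 to 0.0544 (NFE2L2), -0.0476 to 0.0228 (SLC7A11) and -0.0481 to 0.0149 (SRXN1), and in JQ1 from -0.0387 to 0.0214 (GCLC), -0.0779 to 0.0443 (NFE2L2) and -0.0406 to 0.0304 (SRXN1). JQ1 values in knockout ran from -0.213 to 0.0170 (HMOX1) and -0.0160 to 0.108 (NFE2L2), and differences of responses from -0.0771 to 0.0017 (FTH1), -0.0299 to 0.153 (GCLC) and -0.0223 to 0.0603 (SRXN1). The cause was not tested. Of the wider lists, calls in JQ1 between genotypes were lost with the compared groups alone for SCD (adjusted p = 0.0648) and AKR1C2 (0.0659), that of SEPHS2 with JQ1 in wild type with library totals (0.096), and that of SLC1A4 between genotypes in DMSO with limma on the signal (0.112).

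Counts over all genes moved more. With library totals the calls with JQ1 were 2298 higher and 5368 lower in wild type (3665 and 3522 in the main analysis) and 2409 and 5250 in knockout (3616 and 3856). At 0.01 there were 4781 with JQ1 in wild type, 926 and 965 between genotypes in DMSO and JQ1, and 6 for the difference. Between genotypes in DMSO 1718 became 2619 (compared groups alone), 3041 (GC and length), and 1092 to 2650 with single libraries left out, and the share higher was 30.8% with library totals and 56.1% with DESeq2, against 43.9%. In JQ1 1860 became 922 (compared groups alone), 3367 (GC and length) and 1223 without replicate 2 of wild type with JQ1. For the difference 29 became 236 (no filter), 154 (DESeq2), 168 (GC and length) and 8 to 88 with libraries left out, and 1817 genes had an unadjusted p under 0.05. HMOX1, with 63 to 172 counts per library, was the least precise of the 10 genes.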
